A study of Mus musculus with 12 samples.

Results

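Aminoacyl-tRNA synthetases are the enzymes that join each amino acid to its transfer RNA, the step that supplies the ribosome with building blocks. The genes described here were 38 named symbols among the 55822 gene identifiers of the count table: 18 enzymes of the cytosol (Aars, Cars, Dars, Eprs, Farsa, Farsb, Hars, Iars, Lars, Mars, Nars, Qars, Rars, Sars, Tars, Vars, Wars and Yars), 2 genes whose products serve both the cytosol and the mitochondria (Gars and Kars), 16 mitochondrial enzymes (named with a final 2), and 2 scaffold proteins, Aimp1 and Aimp2. Members were found by matching Ensembl identifiers to mouse symbols, and each of the 38 matched 1 row and passed the filter on low counts. Newer releases write the cytosolic names with a final 1, as in Wars1.

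Smooth muscle cells (SMCs), primary cultures from the mouse aorta, gave 12 bulk RNA libraries in 3 groups of 4. Cells given conditioned medium were first starved for 48 h in medium with 0.3% serum, penicillin and streptomycin; whether the cells in regular growth medium were starved too is not spelled out. The first group received medium conditioned by naive bone marrow-derived macrophages (BMDMs; naive CM), the second medium conditioned by BMDMs that had been primed overnight with 20 ng/mL interferon-γ (IFNγ), given 100 ng/mL lipopolysaccharide (LPS) for 4 h and washed (IFNγ/LPS CM), and the third regular growth medium. The media were conditioned for 24 h by the washed macrophages in 0.3% serum, antibiotics and 10 ng/mL macrophage colony-stimulating factor, and the SMCs stayed in them for 24 h; the composition and serum of the regular growth medium and the age, sex and strain of the mice are not stated in these sources. The labels call the libraries biological replicates but do not name the animals or cultures behind them, so the p-values cover only the variation among the libraries sequenced, which may be technical. The table heads its conditioned-medium columns M0 and M1, which were read by their usual meaning as naive and IFNγ/LPS; the direction of every comparison between those 2 media rests on that reading.

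Mammalian cells keep separate sets of these enzymes for the cytosol and for the mitochondria, both encoded in the nucleus. Several cytosolic enzymes are held together by scaffold proteins in the multisynthetase complex. Many cytosolic synthetase genes are known targets of ATF4, the transcription factor of the amino acid and integrated stress response, which binds C/EBP-ATF elements. Wars, the tryptophanyl-tRNA synthetase, has long been known as an interferon-γ-induced gene, and interferon-γ also induces the tryptophan-degrading enzyme Ido1 in many cells.

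RefSeq promoter windows (GRCm38.p6, 250 bases before to 50 after the start of the gene) were matched for 29 of the 38 members; Cars, Hars, Hars2, Lars, Nars, Pars2, Rars, Vars and Wars were not matched. The promoters are shown because 21 of the 38 members were called higher, and 6 lower, with IFNγ/LPS CM than with naive CM. Among all genes tested, 36.1% were called higher and 35.8% lower. Another reason for showing the promoters is that the elements of ATF4 and of interferon signalling have known letters. These motifs were chosen with results of these data known. The C/EBP-ATF element, searched as TGATGNAA on both strands, was found in 5 of the 29 members (Aars, Gars, Iars, Tars and Yars) and in 3.97% of all 32851 promoter windows. All 5 were called higher with the main scaling described below, but only Gars with plain library totals. Kars, Dars, Farsa, Aimp2 and Nars2, whose windows held no match to this element, were called higher with both scalings. Whether the element bears on these changes was not tested. The longest stretch printed is the upstream part of Gars, the member with the highest level per kilobase in IFNγ/LPS CM, from chr6:55037751-55038000 on the plus strand, with the element in capitals as it reads on that strand.
Gars: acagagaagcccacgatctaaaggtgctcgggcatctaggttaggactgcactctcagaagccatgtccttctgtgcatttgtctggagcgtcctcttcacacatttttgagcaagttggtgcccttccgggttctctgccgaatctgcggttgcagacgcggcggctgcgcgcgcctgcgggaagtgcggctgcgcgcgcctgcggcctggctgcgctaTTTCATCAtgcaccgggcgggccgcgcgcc

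The same element in the other 4 members is shown in windows of 30 bases, each printed 5′ to 3′ on the strand of its gene with the element in capitals. The windows lie at chr8:111033840-111033869 (Aars, plus), chr13:49682126-49682155 (Iars, plus), chr15:11399655-11399684 (Tars, minus) and chr4:129189895-129189924 (Yars, plus). The elements shown for Aars, Iars and Yars lie within the first 20 bases after the annotated start, so they are in the transcribed leader; not every match in these members is printed.
Aars: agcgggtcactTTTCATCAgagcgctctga
Iars: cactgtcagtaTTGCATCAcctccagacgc
Tars: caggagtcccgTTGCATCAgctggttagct
Yars: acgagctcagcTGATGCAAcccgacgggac

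The interferon-γ activated site (GAS), searched as TTCNNNGAA, reads the same on both strands. It was found in Aars, Kars and Nars2, 3 of the 29, and in 8.3% of all windows; the Kars and Nars2 matches, at chr8:112011344-112011373 (minus) and chr7:96951370-96951399 (plus), are printed as examples picked after the values of both genes were seen. The core of the interferon-stimulated response element, 2 GAAA runs parted by 2 bases on either strand, was found only in Qars among the 29 members, and in 3.44% of all windows. A match gives the letters present in a window and not a site bound in these cells.
Kars: cccgccctctTTCCCGGAAgaggcaggact
Nars2: cagtagctatTTCTGAGAAacctgagacag

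Libraries held 28097496 to 61493375 estimated counts, the fewest in regular medium replicate 3 and naive CM replicate 3. Levels are in counts per 1000000 of the scaled library total (CPM). Of the 8 smooth muscle markers, Myh11, Cnn1 and Des stayed under 1 CPM in every library, and the summed level of the 8 was 334 to 417 CPM in regular medium, 302 to 318 with naive CM and 116 to 119 with IFNγ/LPS CM. The summed level of 12 macrophage markers was 33.2 to 36.5 CPM with naive CM and 58.8 to 69.7 with IFNγ/LPS CM. Of the 12, 8 were under 1 CPM in every library, Fcgr1 was at 0, and Adgre1, Itgam, Ptprc and Spi1 averaged at most 0.052 CPM in each group. Only 5 had enough counts to test. From naive to IFNγ/LPS CM, Csf1r, Cd68, Lyz2 and Cd14 rose at least 2-fold, as 13.9% of all genes did, and Mertk fell. The 7 fibroblast markers summed to 2055 to 2228 CPM with naive CM and 6830 to 7507 with IFNγ/LPS CM, mostly Dcn; Dcn, Ly6a and Pdgfra rose, Dpt, Pi16 and Col14a1 fell, and Lum did not pass the test. Endothelial markers summed to at most 3.55 CPM and T cell markers to at most 0.434 CPM in any library. The part of these shifts in the synthetase results was not tested. In bulk RNA, fewer cells of a type and less RNA per cell cannot be told apart.

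The first comparison asked how medium from IFNγ/LPS-treated macrophages changed the synthetase genes relative to medium from naive macrophages. Of the 38 members, 21 were higher and 6 lower at an adjusted p under 0.05 (edgeR's quasi-likelihood test, Benjamini-Hochberg over 16140 genes), and 11 did not pass. Among all genes tested, 36.1% were higher and 35.8% lower. Wars, Cars and Gars were at least 2-fold higher, where 13.9% of all genes were, and no member was at least 2-fold lower, where 15% of all genes were. The libraries of the 2 groups did not overlap for 27 members, 20 above and 7 below; among all genes tested 34.9% lay above and 34.6% below without overlap. The median log2 fold change was 0.20 over the members and 0.004 over all genes tested.

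The scaling of the libraries decided many of the small differences. The trimmed mean of M values (TMM) gave mean scaling factors of 1.09 for naive CM and 0.836 for IFNγ/LPS CM; with plain library totals the median of all genes moved by -0.387 on the log2 scale. Then 8 of the 38 members were higher and 19 lower, and 3279 and 9371 of the 16140 genes tested. The median log2 fold change was then -0.19 over the members and -0.38 over all genes tested. The 8 that stayed higher were Wars, Cars, Gars, Kars, Aimp2, Nars2, Dars and Farsa, and these and the 6 that fell kept their calls in each of the 21 alternatives run. The other 13 rises, among them those of Nars, Tars, Aars, Eprs and Sars, were not called higher with plain library totals.

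**Figure D1:**
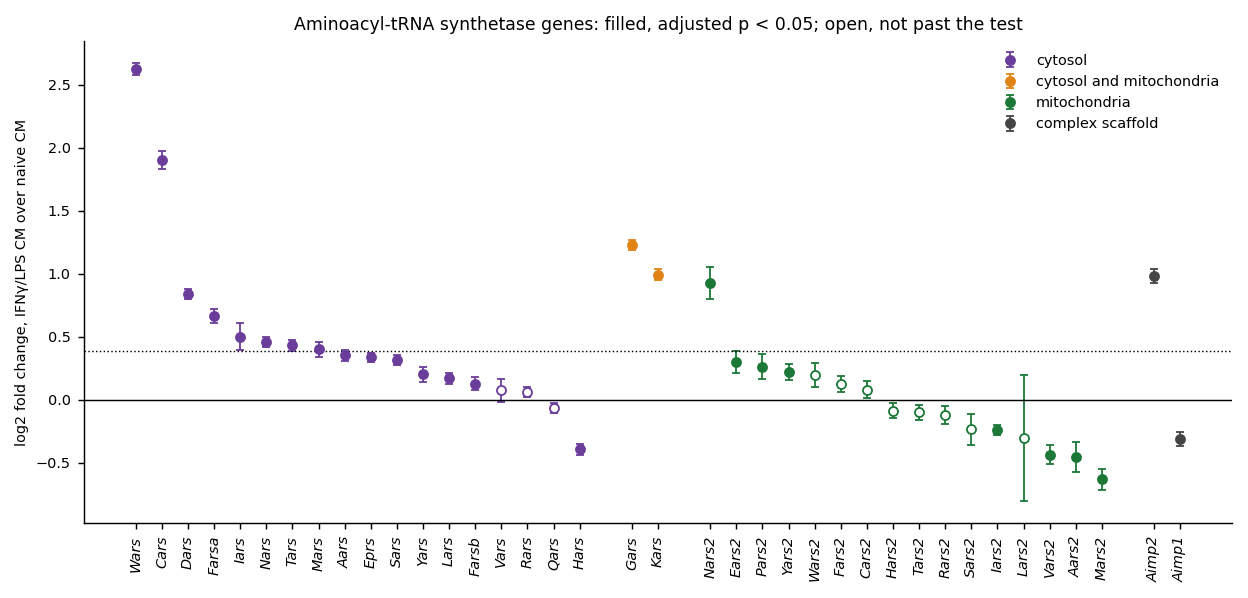
Log2 fold change of IFNγ/LPS CM over naive CM (vertical axis) for the 38 genes, grouped by compartment; bars are standard errors, filled points passed the test (adjusted p under 0.05, 4 libraries a group), and the dotted line at 0.387 marks where no change would fall with plain library totals. Wars stands highest at 2.63, the mitochondrial enzymes lie on both sides of 0, and Lars2 has the widest error.

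Wars rose most. Its level was 51.6, 49.4, 55.7 and 54.6 CPM in regular medium, 47.3, 51.1, 51.2 and 55.3 under naive CM, and 315, 321, 318 and 311 under IFNγ/LPS CM. Every library of the last group lay far above the other 8, which overlapped each other. The log2 fold change over naive CM was 2.63 (SE 0.05, n = 4 a group, edgeR adjusted p = 1.29e-19), or 6.17-fold, and 5.15% of all genes tested had a larger one. The gene lies at chr12:108860030-108894174 on the minus strand (GRCm38, GENCODE M21).

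Wars2, the mitochondrial tryptophanyl-tRNA synthetase, at chr3:99141068-99239186, gave 8.95, 9.46, 7.94 and 7.58 CPM in regular medium, 8.65, 8.58, 10.3 and 9.12 under naive CM, and 11.4, 11.3, 9.45 and 9.50 under IFNγ/LPS CM. The latter 2 groups overlapped. The log2 fold change of 0.19 (SE 0.09) did not pass the test (edgeR adjusted p = 0.0760), although it passed in 4 of the 21 alternatives, at 0.23 to 0.25: without naive CM replicate 3, IFNγ/LPS CM replicate 3 or 4, or the 2 libraries of fewest counts. The log2 ratio of Wars to Wars2 within a library, which does not depend on the scaling, was 2.49 ± 0.13 (SD, n = 4) with naive CM and 4.93 ± 0.14 with IFNγ/LPS CM.

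Cars, the cysteinyl-tRNA synthetase, was second among the 38. Its libraries gave 27.8, 27.8, 34.3 and 33.9 CPM in regular medium, 27.8, 33.8, 31.6 and 32.7 under naive CM, and 117, 119, 116 and 120 under IFNγ/LPS CM. The log2 fold change was 1.90 (SE 0.07, edgeR adjusted p = 5.07e-13), or 3.74-fold, and the 2 media did not overlap.

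Gars and Kars, the glycyl- and lysyl-tRNA synthetases, each make the cytosolic and the mitochondrial enzyme from 1 gene. Gars was at 142, 163, 153 and 158 CPM in naive CM and at 356, 366, 364 and 355 in IFNγ/LPS CM, with 140 to 147 in regular medium. Its log2 fold change was 1.23 (SE 0.04, edgeR adjusted p = 1.64e-15). Kars was at 114, 115, 122 and 118 CPM in naive CM and at 228, 240, 240 and 225 in IFNγ/LPS CM, a log2 fold change of 0.99 (SE 0.05, edgeR adjusted p = 2.05e-13). For both genes every IFNγ/LPS CM library lay above every naive CM library, and gene-level counts cannot tell the forms of the 2 compartments apart.

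**Figure D2:**
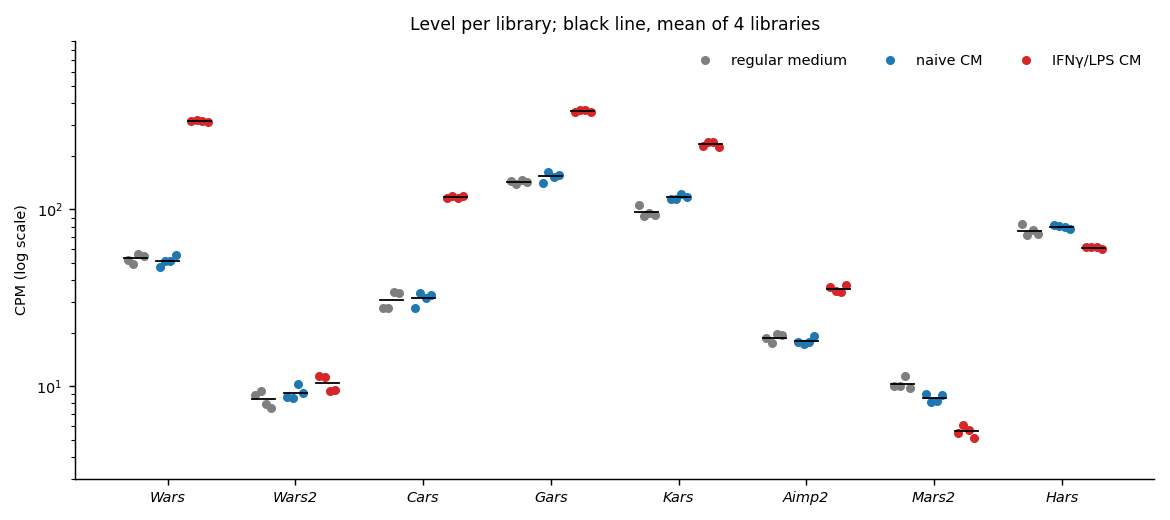
Level in each library (CPM, log scale) of Wars, Wars2, Cars, Gars, Kars, Aimp2, Mars2 and Hars in regular medium (grey), naive CM (blue) and IFNγ/LPS CM (red), with the mean of 4 libraries as a black line. The red points of Wars sit between 311 and 321 CPM, above all other points of that gene, while those of Mars2 and Hars sit below the others.

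The remaining cytosolic enzymes moved less. With Gars and Kars left aside, 14 of the 18 rose and Hars fell, where 36.1% of all genes rose and 35.8% fell. Qars (log2 fold change -0.07), Rars (0.06) and Vars (0.07) did not pass the test. With plain library totals the same 18 gave 4 higher and 7 lower. Their median log2 fold change was 0.34 with Wars and 0.34 without it. Dars, the aspartyl-tRNA synthetase, rose by 0.84 (SE 0.04) from a range of 100.2 to 103.8 CPM to 178 to 187. Farsa, the α subunit of the phenylalanyl-tRNA synthetase, rose by 0.66 (SE 0.06), while Farsb, its β subunit, rose by 0.13 (SE 0.05; edgeR adjusted p = 0.0408) and lost its call in 10 of the 21 alternatives, among them 0.10 to 0.13 without naive CM replicate 1, 2 or 3 or IFNγ/LPS CM replicate 2, 3 or 4. The other rises were Iars (isoleucine) at 0.50, Nars (asparagine) at 0.46, Tars (threonine) at 0.43, Mars (methionine) at 0.40, Aars (alanine) at 0.35, Eprs (glutamate and proline in 1 protein) at 0.34, Sars (serine) at 0.31, Yars (tyrosine) at 0.20 and Lars (leucine) at 0.17, all relative to TMM scaling; with plain library totals none of these 9 was called higher, and Aars, Eprs, Sars, Yars and Lars turned negative.

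Hars, the histidyl-tRNA synthetase, was the only enzyme of the cytosol that fell with TMM scaling (7 did with plain library totals). It was at 81.4, 80.2, 80.1 and 78.0 CPM in naive CM and at 61.2, 61.2, 61.1 and 59.4 in IFNγ/LPS CM, with no overlap (log2 fold change -0.40, SE 0.04, edgeR adjusted p = 1.27e-07). Its mitochondrial counterpart Hars2, which lies beside it on the opposite strand and shares 195 bp of exon with it, had a log2 fold change of -0.09 (SE 0.06) and did not pass the test.

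By structural class, 6 of the 9 class I enzymes of the cytosol rose and 3 did not pass (median 0.20); of the 10 class II enzymes, Gars and Kars included, 9 rose and Hars fell (median 0.45). Eprs, which joins an enzyme of each class, was counted in neither. With plain library totals class I gave 2 higher and 5 lower, and class II 4 higher and 2 lower. Of the 10 members of the multisynthetase complex, 7 rose, Aimp1 fell, and Qars and Rars did not pass (median 0.37). Of the 12 enzymes outside it, 10 rose, Hars fell and Vars did not pass (median 0.39). With plain library totals these 10 genes of the complex gave 3 higher and 4 lower, and the enzymes outside it 4 and 4. The largest rises, those of Wars, Cars and Gars, were all outside the complex. The difference between these sets was not tested. Of all genes tested, 36.1% rose and 35.8% fell with TMM scaling.

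The 2 scaffold proteins among the 38 moved in opposite directions. Aimp2 was at 17.8, 17.3, 17.9 and 19.3 CPM in naive CM and at 36.5, 34.6, 34.3 and 37.5 in IFNγ/LPS CM (log2 fold change 0.98, SE 0.06, edgeR adjusted p = 7.32e-12). Aimp1, also the precursor of a secreted cytokine, was at 57.1, 58.8, 49.9 and 51.9 CPM in naive CM and at 43.7, 44.4, 44.2 and 43.2 in IFNγ/LPS CM (log2 fold change -0.31, SE 0.05, edgeR adjusted p = 3.11e-05). Neither gene's libraries overlapped between the 2 media. Of the 1654 bp of Aimp2 exons, 487 overlap exons of Eif2ak1 on the opposite strand; Eif2ak1 itself was at 60.6 CPM with naive CM and 53.6 with IFNγ/LPS CM.

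The mitochondrial enzymes did not share a direction: 4 of the 16 rose, 4 fell and the other 8 missed the threshold. Among all genes tested 36.1% rose and 35.8% fell. The median log2 fold change of the 16 was -0.09. With plain library totals 1 rose and 11 fell, and the median was -0.48, where that of all genes was -0.38. Nars2, for asparagine, rose most, from 4.76, 3.87, 2.92 and 3.90 CPM in naive CM to 7.67, 7.96, 6.90 and 6.96 in IFNγ/LPS CM (log2 fold change 0.92, SE 0.13, edgeR adjusted p = 2.34e-06). Ears2 (0.30), Pars2 (0.26) and Yars2 (0.22) were also called higher, and each turned negative with plain library totals; Pars2 lost its call in 7 of the 21 alternatives, among them 0.20 to 0.24 without naive CM replicate 2 or 3 or IFNγ/LPS CM replicate 1 or 4.

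Mars2, for methionine, fell most. It was at 9.07, 8.20, 8.31 and 8.98 CPM in naive CM and at 5.46, 6.08, 5.65 and 5.13 in IFNγ/LPS CM (log2 fold change -0.63, SE 0.08, edgeR adjusted p = 1.38e-06). Aars2, for alanine, was at 7.49, 8.61, 8.12 and 7.88 CPM in naive CM and at 6.13, 4.98, 5.57 and 6.76 in IFNγ/LPS CM (-0.45, SE 0.12, edgeR adjusted p = 2.17e-03). Vars2, for valine, was at 26.0, 26.5, 31.2 and 26.6 CPM in naive CM and at 20.1, 19.9, 20.6 and 20.7 in IFNγ/LPS CM (-0.44, SE 0.07, edgeR adjusted p = 2.53e-05). The 2 media did not overlap for any of these 3 genes. Iars2 also fell, by 0.24 on the log2 scale (SE 0.04). Fars2 (0.12), Cars2 (0.08), Tars2 (-0.10), Rars2 (-0.12) and Sars2 (-0.24) did not pass the test, although the Sars2 libraries did not overlap and Fars2 passed without IFNγ/LPS CM replicate 4 (0.15).

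Lars2, the mitochondrial leucyl-tRNA synthetase, varied more between libraries than any other member. Its levels were 13.9, 13.1, 45.3 and 16.2 CPM in regular medium, 22.8, 25.0, 51.4 and 20.7 under naive CM, and 29.8, 33.7, 14.1 and 18.2 under IFNγ/LPS CM. The 2 highest values fell in the 2 libraries with the fewest counts, and the part of depth in this was not tested. The log2 fold change between the conditioned media was -0.31 (SE 0.50), and 0.06 without naive CM replicate 3.

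**Figure D3:**
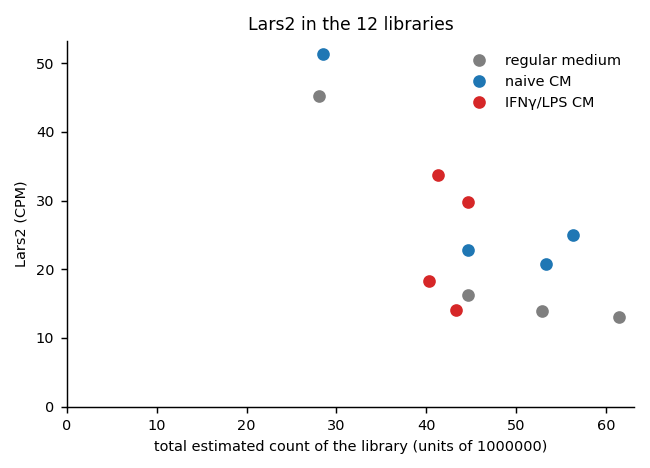
Level of Lars2 (vertical axis, CPM) against the total estimated count of each of the 12 libraries (horizontal axis, in units of 1000000), coloured by medium. The points at 45.3 and 51.4 CPM are the 2 libraries with the fewest counts.

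For 13 amino acids the table holds a cytosolic and a mitochondrial enzyme from separate genes, and their ratio within a library is free of the library's scaling. From naive to IFNγ/LPS CM the mean log2 ratio rose for 10 pairs and fell for 3, with a median difference of 0.54. Wars to Wars2 rose most, by 2.44, followed by Cars to Cars2 by 1.83 (1.102 ± 0.114 to 2.93 ± 0.09, SD, n = 4) and Mars to Mars2 by 1.04 (2.43 ± 0.19 to 3.47 ± 0.11). Hars to Hars2 differed by -0.31 and Nars to Nars2 by -0.49, both without overlap, and Yars to Yars2 by -0.01 with overlap. From regular medium to naive CM the difference was above 0 for 7 pairs and below 0 for 6, with a median of 0.0006. No test was run on these ratios, and ratios of other gene pairs were not computed for comparison.

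**Figure D4:**
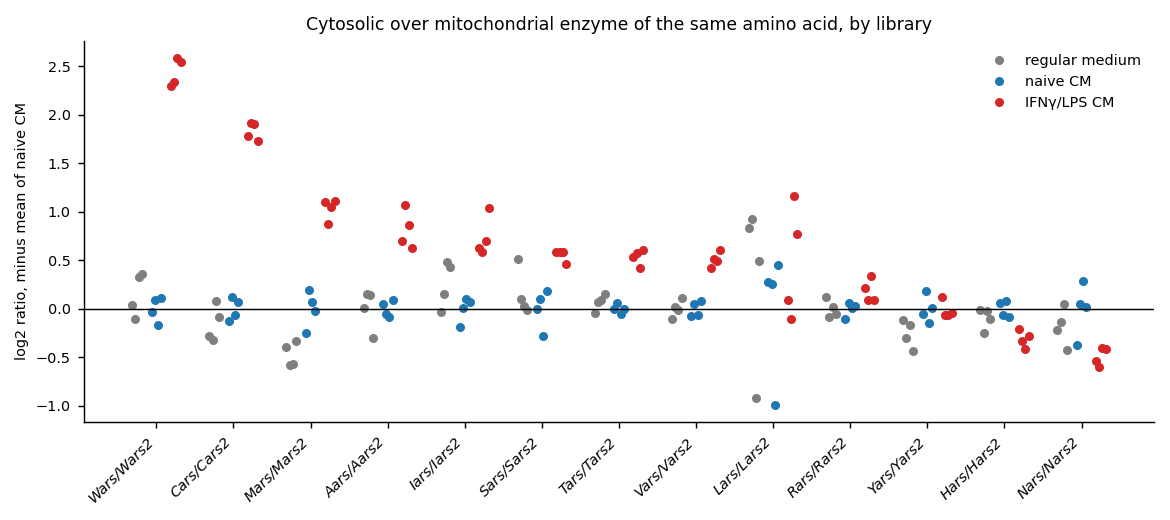
Log2 ratio of the cytosolic to the mitochondrial enzyme for 13 amino acids in each library, shown as the difference from the mean of naive CM (vertical axis), in regular medium (grey), naive CM (blue) and IFNγ/LPS CM (red). The red points stand above the blue ones without overlap for 9 pairs and below them for Hars/Hars2 and Nars/Nars2.

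Levels were compared between genes only as CPM per kilobase of the longest protein-coding transcript. The summed level of the 20 enzymes of the cytosol, Gars and Kars included, was 603 ± 11.5 (SD, n = 4) CPM per kilobase in regular medium, 641 ± 18.5 with naive CM and 1014 ± 6.48 with IFNγ/LPS CM. Without Wars the latter 2 sums were 623 ± 17.9 and 902 ± 5.19. The 16 mitochondrial enzymes summed to 92.1 ± 2.61, 96.9 ± 3.73 and 91.2 ± 2.57. These sums rest on TMM scaling, whose mean factors were 1.09 for naive CM and 0.836 for IFNγ/LPS CM. With plain library totals the median log2 fold change between these media was -0.01 over the 20 and -0.48 over the 16. That of all genes tested was -0.38. The ratio of the 2 sums within a library, which does not depend on the scaling, was 6.63 ± 0.36 with naive CM and 11.1 ± 0.31 with IFNγ/LPS CM.

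Wars made up 3.10 ± 0.16% of the cytosolic sum in regular medium, 2.82 ± 0.14% with naive CM and 11.0 ± 0.10% with IFNγ/LPS CM. Among the 20 enzymes it ranked 13, 15 and 2 by mean level per kilobase in the 3 media. In IFNγ/LPS CM the order was Gars (151 ± 2.33 CPM per kilobase), Wars (112 ± 1.53), Kars (107 ± 3.45) and Nars (91.8 ± 0.55); in naive CM it was Nars (66.7 ± 3.73), Gars (64.7 ± 3.82) and Rars (63.6 ± 2.54), whose ranges of mean ± SD overlapped. Cars rose from rank 20 to rank 10. Wars, Cars, Gars and Kars, picked for this sum after their values were seen, together made up 22.8 ± 0.62% with naive CM and 40.1 ± 0.45% with IFNγ/LPS CM. Among the mitochondrial enzymes Iars2 was highest and Mars2 lowest in all 3 media; the annotated Mars2 transcript is 11294 bp long, which lowers its value per kilobase.

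**Figure D5:**
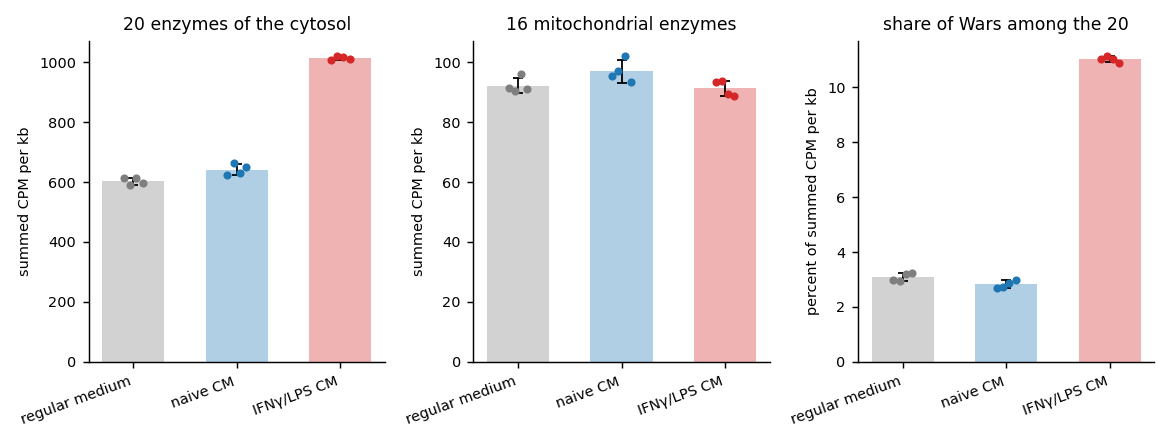
Summed level of the 20 enzymes of the cytosol (left) and of the 16 mitochondrial enzymes (middle), in CPM per kilobase, and the percent of the cytosolic sum held by Wars (right), by medium. Both sums rest on TMM scaling. Bars are means, points are the 4 libraries and error bars the SD; the cytosolic sum and the Wars share are highest in IFNγ/LPS CM at 1014 and 11.0%, while the means of the mitochondrial sum lie between 91.2 and 96.9.

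The second comparison, naive CM against regular medium, asked what macrophage-conditioned medium itself did, although the 2 groups may also differ in serum, growth factor and prior starvation. Of the 38 members, 8 were higher and 3 lower, and 27 did not pass; among all genes tested 18.3% were higher and 16.4% lower. Qars, the glutaminyl-tRNA synthetase, rose most, from 104.4, 97.7, 104.2 and 94.4 CPM in regular medium to 128, 128, 130 and 127 in naive CM (log2 fold change 0.36, SE 0.04, edgeR adjusted p = 2.26e-06). It was at 120, 119, 130 and 120 CPM in IFNγ/LPS CM. Kars rose from 106, 91.8, 95.9 and 92.8 CPM to the naive CM values given above (0.28, SE 0.05, edgeR adjusted p = 9.37e-05), so it was highest in IFNγ/LPS CM and lowest in regular medium. Fars2, the mitochondrial phenylalanyl-tRNA synthetase, rose from 23.1, 20.1, 19.4 and 20.8 CPM to 26.6, 26.0, 24.5 and 23.9 (0.27, SE 0.06, edgeR adjusted p = 1.91e-03).

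Ears2, for glutamate, fell from 6.89, 6.40, 6.62 and 6.42 CPM in regular medium to 5.45, 5.70, 4.72 and 5.03 in naive CM (log2 fold change -0.33, SE 0.09, edgeR adjusted p = 6.24e-03). Mars2 fell from 10.0, 10.1, 11.5 and 9.83 CPM to the naive CM values given above (-0.26, SE 0.08, edgeR adjusted p = 0.0175), and Yars2, for tyrosine, from 11.6, 12.5, 12.1 and 12.8 CPM to 10.6, 10.4, 10.6 and 10.9 (-0.20, SE 0.07, edgeR adjusted p = 0.0208). The last 2 did not pass without naive CM replicate 2, which left 1 lower member. Mars2 also missed the threshold without regular medium replicate 3, and Yars2 without regular medium replicate 4. Vars2 (0.25), Lars (0.21), Mars (0.21), Aars (0.16) and Farsb (0.15) were also called higher; Farsb lost its call without regular medium replicate 4 or naive CM replicate 2 or 4, and Vars2 without the 2 libraries of fewest counts. Wars did not pass, at -0.04 (SE 0.05). This comparison and the first share the naive CM libraries.

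Against regular medium, IFNγ/LPS CM gave 22 members higher and 6 lower, where 35.4% and 36.4% of all genes were; 4 members were at least 2-fold higher (13.7% of all genes) and none at least 2-fold lower (14.4%). This comparison shares its libraries with the other 2. The log2 fold change was 2.58 for Wars, 1.93 for Cars, 1.32 for Gars, 1.27 for Kars, 0.92 for Aimp2 and -0.89 for Mars2. Qars was 0.29 higher and Ears2 differed by -0.03 (SE 0.09), which did not pass. With plain library totals 10 members were higher and 15 lower.

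Other genes of amino acid and tRNA metabolism are given for the first comparison, IFNγ/LPS CM over naive CM, from lists of the genes of each pathway. There 36.1% of all genes tested rose and 35.8% fell, and with plain library totals the median of all genes was -0.38. Of 24 genes of the ATF4 and integrated stress response, 18 rose and 5 fell, with a median log2 fold change of 0.99; with plain library totals 16 rose and 6 fell. Atf4 itself went from 99.3, 107, 101.7 and 110 CPM to 440, 432, 405 and 414 (log2 fold change 2.01, SE 0.04, edgeR adjusted p = 1.77e-18). Ddit3 (1.91) and Trib3 (2.75), stress-response regulators, and Asns (1.01), the asparagine synthetase, rose as well. The largest rises were those of the cystine transporter Slc7a11 (4.46), Atf3 (4.29) and Trib3. The members that fell most were enzymes of proline and serine synthesis, Pycr1 (-1.86), Phgdh (-1.76) and Psat1 (-1.42). The 68 bp by which exons of Mars overlap Ddit3 on the opposite strand bear on both counts if strand was not used. Whether these changes bear on the synthetase genes was not tested.

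Of the kinases and regulators of eIF2, Eif2ak2, the interferon-induced kinase PKR, rose by 2.95, Eif2ak3 (PERK) fell by 0.61 on the log2 scale, and Eif2ak4 (GCN2), which senses uncharged tRNA, did not pass the test at -0.03 (SE 0.05; -0.42 and called lower with plain library totals). The interferon response gene Irf1 rose by 5.34 and Myc by 1.42. Of 11 genes of tryptophan breakdown 5 had enough counts to test: Ido2 (5.80), Ido1 (3.96) and Kyat3 (1.16) rose, Afmid fell by 1.47 on the log2 scale and Kyat1 did not pass. Ido1 and Ido2 averaged 0.44 and 0.40 CPM in naive CM. Ido1 stayed low, at 6.51 to 8.15 CPM in IFNγ/LPS CM, and Kynu had no count in any library.

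Of 15 amino acid transporters tested, 7 rose and 6 fell (4 and 9 with plain library totals), where 36.1% of all genes rose and 35.8% fell. Slc7a2, a carrier of cationic amino acids, rose by 4.38, Slc43a2, a carrier of large neutral ones, by 3.63, and Slc3a2, the heavy chain of several carriers, by 1.04; Slc36a4 (-0.64), Slc7a6 (-0.61) and Slc38a2 (-0.53) fell most. Of 12 relatives and helpers of the synthetases, 2 rose and 8 fell (none and 11 with plain library totals), among them the third complex scaffold Eef1e1 (0.39; 0.00 with plain library totals), the editing protein Aarsd1 (-1.61), the threonyl enzyme Tarsl2 (-1.21) and the mitochondrial Qrsl1 (-0.94). Of 7 cytosolic elongation factors and their regulators none rose and 6 fell by edgeR's test (the seventh, Eif5a, at -0.01), led by the kinase Eef2k (-1.11) and Eef1g (-0.27). Of 10 mitochondrial translation factors 4 rose and 4 fell (none and 7 with plain library totals). Of 15 genes of tRNA synthesis, processing and export, 7 rose, led by the RNA polymerase III subunit Polr3g (1.52), and 7 fell, led by Rpp25 of RNase P (-3.98). Rpp25 was low throughout, at a mean of 1.59 CPM with naive CM and 0.097 with IFNγ/LPS CM, the latter from 14 counts. With plain library totals 1 gene of the 15 rose and 9 fell.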

How the data were processed

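The authors deposited 1 table of expected counts per gene, estimated counts that need not be whole, for 12 poly(A) libraries, made with a stranded kit and read as 2 × 150 bp per the labels' protocols; Salmon 1.10.1 and mm10 are named in the submitters' processing notes. How transcripts were summed and whether strand was used are not stated there, and exons of 15 members overlap another gene (Aars and Exosc6 on the same strand, by 1326 of 9282 bp). Counts were rounded and tested with edgeR 4.0.16 (R 4.3.3): TMM, filterByExpr (16140 genes), a robust quasi-likelihood fit of all 12 libraries with 3 groups (9 residual degrees of freedom), and Benjamini-Hochberg adjustment with a threshold of 0.05, two-sided. SE is the size of the log2 fold change divided by the square root of F. Rows without a symbol held 3.53 to 5.86% of counts and stayed in the totals. Lengths came from GENCODE M21. Alternatives used DESeq2 1.42.0, limma-voom (limma 3.58.1), DESeq2 size factors, plain library totals, other filters, only the groups compared, a replicate block and each library left out.

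The members and the gene lists were chosen with earlier results of these data known. Members shown library by library were Wars, Wars2, the 5 largest rises and the 5 largest falls of the first comparison and the 3 of each direction in the second, among those past the test with no overlap; Nars2 and Lars2 were added after their values were seen. Lists are shown by up to 3 examples each way, with Atf4, Ddit3, Asns, Trib3, Ido1, Kynu, Irf1, Myc and Eif2ak4 always given; some items are not reported here.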

Additional observations from a re-analysis of the deposited data

Results flagged for a closer look

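Of 114 sets of 4 libraries (38 genes in 3 media), 11 held a library far from the other 3 (Dixon's test); chance gives about 1 in 20. For Lars2 these were regular medium replicate 3 at 45.3 CPM, where the others were at 13.1 to 16.2, and naive CM replicate 3 at 51.4 CPM, where the others were at 20.7 to 25.0. In the same 2 libraries Mars2 stood at 11.5 CPM in regular medium replicate 3 and Vars2 at 31.2 CPM in naive CM replicate 3, both above the others. In IFNγ/LPS CM, Hars was low at 59.4 CPM and Iars2 at 117 CPM in replicate 4, Qars was high at 130 CPM in replicate 3, and Sars at 138 CPM in replicate 2. Farsb was low at 30.5 CPM in regular medium replicate 4, Tars2 high at 17.8 CPM in regular medium replicate 1, and Iars low at 46.1 CPM in naive CM replicate 1.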

How the results depend on the processing

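Scaling by plain library totals moved most. In IFNγ/LPS CM against naive CM it gave 8 of the 38 members higher and 19 lower, and 3279 and 9371 of the 16140 genes tested (5830 and 5781 with TMM). Against regular medium it gave 10 and 15 members, and 3279 and 9597 of all genes. Log2 fold changes turned negative for Aars (-0.035), Eprs (-0.052), Farsb (-0.26), Lars (-0.22), Rars (-0.33), Sars (-0.073), Vars (-0.31), Yars (-0.19), Cars2 (-0.31), Ears2 (-0.089), Fars2 (-0.26), Pars2 (-0.13), Wars2 (-0.20) and Yars2 (-0.17). Lars2 ranged from -0.52 to 0.064 when each library was left out, turning positive without naive CM replicate 3, and was 0.064 without the 2 libraries of fewest counts, an alternative added after the values were seen. In naive CM against regular medium, Wars ranged from -0.081 to 0.0015 when each library was left out, turning positive without naive CM replicate 1. The 3 lower members there became 1 with no filter, 1 without the 2 libraries of fewest counts, and 1 to 4 when each library was left out; the cause was not tested. Deviations from the group means were hardly correlated between libraries of the same replicate number (-0.0637 to 0.0679 over 12 pairs, under 0.1). Such values cannot show that the libraries were unpaired. A replicate block gave 4 lower members in naive CM against regular medium and changed no call of the 38 members between the conditioned media. DESeq2's Wald test changed 1 of those 38 calls, and DESeq2 size factors and limma-voom changed none. Depth limits the members of fewest counts, such as Sars2, with 460 counts over the 4 IFNγ/LPS CM libraries.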
